A study of Mus musculus with 40 samples.

Results

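Catalytic mutation and deletion of the same gene were compared directly: 4 whole embryos homozygous for a single amino acid change in KAT6B (Kat6a WT with Kat6b G577E/G577E, written here Kat6b E/E) and 4 whole embryos homozygous for a deletion allele (Kat6a WT with Kat6b dec/dec, written here Kat6b-/-). All embryos were taken at embryonic day 9.5 (E9.5), and each library is the bulk RNA of 1 embryo. The 8 libraries were chosen by these genotype labels from the 40 libraries of the series, and they are all of the libraries that carry them. The model that compared them used all 24 E9.5 libraries, which come from 6 genotypes, and the 4 WT libraries (Kat6a WT, Kat6b WT) are given beside the mutants. The point mutation was made with Cas9 in C57BL/6J mice, and the deletion allele was kept on a C57BL/6 background. Embryos had been selected to look alike from outside. Total counts were 11836227 to 17053207 per library in Kat6b E/E and 8401990 to 21929384 in Kat6b-/-. The Kat6b E/E embryos came from 3 litters, replicates 1 and 2 being littermates, and the Kat6b-/- embryos from 4. There were 0 litters in common between them (1 litter was shared by Kat6b-/- and WT, and 0 by Kat6b E/E and WT). Litter and colony therefore cannot be told apart from genotype in this comparison.

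KAT6B is a histone acetyltransferase of the MYST family that works in a complex with a BRPF scaffold protein, an ING reader and MEAF6, and acetylates histone H3. The glycine changed here lies in the acetyltransferase domain. A mutant of this kind is meant to leave the protein in place without its catalytic activity, whereas the null allele is meant to remove the protein, and a direct comparison of the pair asks whether the embryo's transcripts differ between loss of catalysis and loss of the protein. In people, KAT6B mutations cause developmental syndromes that affect the brain, skeleton and heart.

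Kat6b lies at chr14:21531502-21722546 on the plus strand of GRCm39, the build of the deposited counts (positions from GENCODE vM39). Its canonical transcript has 17 exons and encodes 1763 residues. The codon for the glycine changed in G577E is GGA, at chr14:21687681-21687683 in exon 12, and the mutation turns it into a codon for glutamic acid. The sequence below is the end of that exon with the wild-type codon in capitals, and it is shown because it places the point mutation inside the stretch that the deletion allele lacks.
Kat6b exon 12, chr14:21687651-21687708, plus strand: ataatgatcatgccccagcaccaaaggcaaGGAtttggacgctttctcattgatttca
The deletion allele lacks exons 2 to 12, which hold 2005 of the 7372 bases (27.2%) of the canonical transcript. Exons 13 to 17 hold 5141 bases (69.7%) and remain in place in both alleles. A count over the whole gene is therefore not a check of either genotype label.

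**Figure D1:**
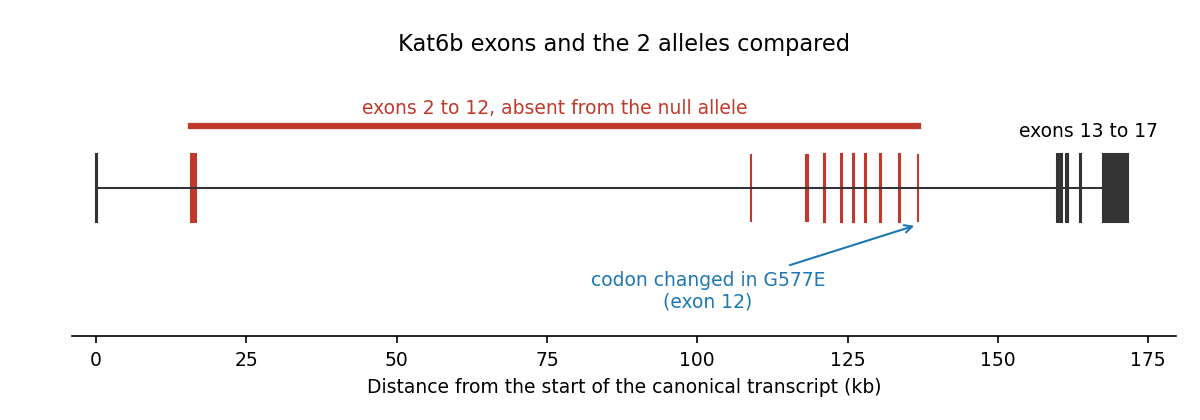
Map of the 17 exons of the canonical Kat6b transcript against distance from its start in kilobases, with the exons absent from the null allele in red and the others in black. The codon changed in the point mutant lies 136.76 kb from the start, in exon 12, the last of the exons that the null allele lacks.

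The libraries themselves were examined first. Although the embryos were described as male, 3 of the 24 libraries had Xist at 525 to 739 CPM (the share of a library's counts, scaled to a common library size) and 4 Y-linked genes summed to at most 0.199 CPM, while the other 21 had Xist at no more than 0.507 CPM and a Y-linked sum of 143 to 216 CPM. Xist is the RNA that coats the inactive X chromosome of XX cells. Kat6b-/- replicates 2 and 3 and 1 library outside the comparison (Kat6a null replicate 2) carried this pattern, so 0 of 4 Kat6b E/E libraries and 2 of 4 Kat6b-/- libraries had Xist. Results are therefore given with all libraries and without these 3, and also with Xist status as a covariate, both chosen after the data had been seen. Kat6b E/E replicate 3 also stood apart, in a sum of posterior Hox genes given below. Markers of tissues that can adhere to a dissected embryo were low or overlapped between the genotypes: visceral endoderm and yolk sac markers (8 of 10 tested) summed to 28.9 to 60.8 CPM in Kat6b E/E and 23.4 to 58.9 in Kat6b-/-, and trophoblast and decidua markers (4 of 11 tested) to 3.71 to 6.59 and 5.19 to 7.17. Genes of the heart, of neural progenitors and of paraxial mesoderm were all expressed. Their summed levels were 1811 to 2165, 2409 to 2761 and 641 to 696 CPM in Kat6b E/E and 1836 to 2483, 1997 to 2461 and 710.4 to 826 CPM in Kat6b-/-, so those of the paraxial mesoderm did not overlap and the others did.

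Few transcripts separated the point mutant from the null. Of 14183 protein-coding genes, 5 were called at a false discovery rate (FDR) under 0.05, which is 0.0353% of those tested. In Kat6b E/E, 2 of them were higher (0.0141%), Tle5 and Tubb2b, and 3 lower (0.0212%), Rbm3, U2surp and Peli3. All differences were below 2-fold, and 4 of the 5 were below 1.5-fold. At an unadjusted p under 0.05 there were 1253 genes (8.83%), of which 567 (4%) were higher and 686 (4.84%) lower in Kat6b E/E. In 268 genes (1.89%) all 4 Kat6b E/E libraries lay above all 4 Kat6b-/- libraries, and in 229 (1.61%) they lay below. In bulk RNA of whole embryos, fewer cells of a type and less RNA per cell cannot be told apart in any of these differences.

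The count of 5 rested on single libraries. It was 0 without Kat6b E/E replicate 1, 2 or 4 and 13 without replicate 3. It was 3, 1 and 2 without Kat6b-/- replicates 2, 3 and 4, and 6 without replicate 1. WT libraries, which enter through the shared surrogate variables and spread, moved it as well: it was 0 without WT replicate 1, 3 without replicate 2 or 3, and 12 without replicate 4. The direction of the 5 genes was the same in all 26 alternatives that were run, 130 of 130 values, and 66 of these passed FDR under 0.05 (DESeq2 gave no FDR for Peli3): Tle5 and Tubb2b in 16 alternatives each, Rbm3 in 14, U2surp in 12 and Peli3 in 8. Without the 3 libraries with Xist 10 genes were called (0.0697% of 14349), and with Xist status as a covariate 64 (0.451%; 41 higher and 23 lower in Kat6b E/E).

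Over their leading genes, the 8 libraries did not fall into separate groups by genotype. The distance between a pair of libraries was the root mean square of their 500 largest log2 differences. It averaged 1.46 among Kat6b E/E embryos, 1.29 among Kat6b-/- embryos and 1.40 between the genotypes, so the between-genotype distance exceeded the within-genotype mean by 0.0237 (exact permutation test over the 35 splits, one-sided p=0.229; the smallest p this design allows is 0.0286). Without Kat6b-/- replicate 1, 2 or 4 the excess was below 0, at -0.0274, -0.00796 and -0.0218. Without both Kat6b-/- libraries with Xist it was 0.0437 (exact permutation p=0.4 over 15 splits, of which the smallest possible p is 0.0667, so this test could not pass 0.05). These distances were taken before removal of surrogate variables, whose removal with genotype kept in the model widens genotype differences by construction and gave 0.101 (exact permutation p=0.0286).

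The width of the intervals sets what the comparison could show. The median half-width of the 95% interval of a log2 fold change was 0.175, against a median absolute log2 fold change of 0.073. In 10868 genes (76.6%) the whole interval lay within 0.5 on the log2 scale either way, and in 13159 (92.8%) within 1. The intervals of the other genes reached past a 2-fold difference.

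**Figure D2:**
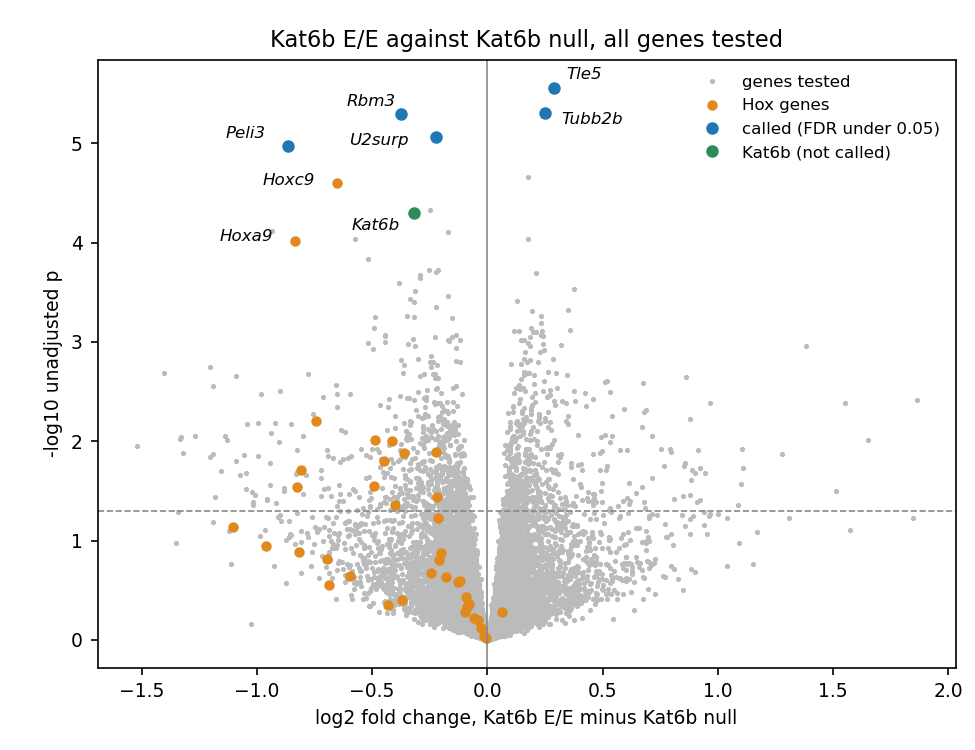
Log2 fold change of each of the 14183 genes tested, Kat6b E/E minus Kat6b-/- (horizontal axis), against -log10 of the unadjusted p (vertical axis), with the 5 called genes in blue, Kat6b in green and Hox genes in orange. The dashed line marks an unadjusted p of 0.05, and 37 of 38 Hox genes lie left of 0.

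Kat6b transcript counts were lower in the point mutant than in the null. The 4 Kat6b E/E libraries had 46.9, 38.8, 42.2 and 42.4 CPM and the 4 Kat6b-/- libraries 54.4, 52.0, 53.1 and 58.3 CPM, in order of replicate number. The groups did not overlap, and the WT libraries, at 38.2 to 42.6 CPM, lay below every Kat6b-/- library. The log2 fold change was -0.32 (SE 0.0659, FDR=0.0801) with all libraries, -0.43 (FDR=0.0336) without the 3 libraries with Xist and -0.39 (FDR=0.0202) with Xist as a covariate. Against WT, Kat6b E/E gave 0.09 (95% interval -0.04 to 0.23) and Kat6b-/- gave 0.41 (FDR=0.00441). Since the deposited counts are per gene and not per exon, the exons behind the higher count in Kat6b-/- were not analysed here.

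The paralog Kat6a was at 202, 158, 187 and 196 CPM in Kat6b E/E and 161, 182, 184 and 196 CPM in Kat6b-/-. The ranges overlapped, and the log2 fold change was 0.04 (95% interval -0.15 to 0.23). The scaffold genes Brpf1 and Brd1, chosen after their values were seen, had small values whose sign changed between alternatives, with Brpf1 at -0.03 (95% interval -0.17 to 0.10) and Brd1 at 0.00 (95% interval -0.11 to 0.10) on the log2 scale. Of 11 KAT6 complex subunits and MYST acetyltransferases tested, 0 were called and Kat6b itself was the single member with an unadjusted p under 0.05. Their median log2 fold change was -0.03.

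Tle5 encodes a short member of the Groucho/TLE corepressor family, which lacks the repeat domain of the long members. It lies at chr10:81394984-81402229. Its levels were 119.7, 107, 84.9 and 78.5 CPM in Kat6b E/E and 79.6, 64.5, 87.1 and 58.3 CPM in Kat6b-/-. Kat6b E/E replicates 1 and 2, which are littermates, lay above all Kat6b-/- libraries and the others among them, so the raw levels overlapped. These littermates also had the highest Kat6b E/E values of Tubb2b, Tubb3 and Igdcc3 (below), and an effect of litter was not tested. After adjustment for surrogate variables Tle5 rose by 0.29 on the log2 scale in Kat6b E/E relative to Kat6b-/- (SE 0.0485, FDR=0.0241). It was 0.37 (FDR=0.0304) without the libraries with Xist. Relative to WT the value was 0.04 (95% interval -0.06 to 0.13) in Kat6b E/E and -0.25 (FDR=0.0181) in Kat6b-/-. Of the 6 Groucho/TLE genes tested, Tle5 was the one called. Tle2, a long member, had a log2 fold change of -0.41 (unadjusted p=0.0103), and the family median was -0.03.

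Tubb2b encodes a beta-tubulin of neurons and lies at chr13:34307245-34315143. It stood at 387, 408, 328 and 313 CPM in Kat6b E/E and at 271, 282, 315 and 250.4 CPM in Kat6b-/-. A single Kat6b E/E library, replicate 4, reached down to the highest Kat6b-/- library. The log2 fold change was 0.25 (SE 0.0433, FDR=0.0241) with all libraries and 0.37 (FDR=0.0163) without those with Xist. Relative to WT it was -0.05 (95% interval -0.13 to 0.04) in Kat6b E/E and -0.30 (FDR=0.00321) in Kat6b-/-. Of the 75-base windows of its longest transcript, 16.3% also occur in transcripts of other genes, mostly Tubb2a, so part of its count depends on how shared reads were assigned.

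The other tubulins had values of the same sign with 1 exception, without being called. The counts that follow are over all 12 alpha- and beta-tubulin genes tested and include the called Tubb2b. Of these, 11 had positive values, and the median log2 fold change was 0.10. On the higher side 5 had an unadjusted p under 0.05 (41.7%, against 4% of all genes), and 0 on the lower side. Tubb3, the beta-tubulin that marks young neurons, was at 131, 123, 95.3 and 81.9 CPM in Kat6b E/E and at 65.3, 59.9, 95.7 and 51.7 CPM in Kat6b-/- (log2 fold change 0.37, SE 0.0851, FDR=0.18). Kat6b-/- replicate 3 was the null library that overlapped with the point mutant. Tubb2a had 0.23 (FDR=0.228) and Tuba1a 0.15 (FDR=0.298). In the annotation, 89.2% of the exon bases of Tubb2a are shared with another gene, mostly Bphl, and 78.7% of the windows of Tuba1a occur in other genes, mostly Tuba1b, so these values are uncertain. Without the libraries with Xist, 4 of the 12 tubulins, Tubb2b included, had an unadjusted p under 0.05 on the higher side, against 5.13% of all genes. Without Kat6b E/E replicate 3 there were 6, beside 786 of all 14183 genes.

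Rbm3, an X-linked gene at chrX:8004213-8012119, encodes an RNA-binding protein that is induced by mild cold. Its levels were 77.8, 93.6, 123 and 88.8 CPM in Kat6b E/E and 114, 119.5, 132 and 116 CPM in Kat6b-/-. Replicate 3 was the one Kat6b E/E library within the Kat6b-/- range. Rbm3 fell by 0.38 on the log2 scale in Kat6b E/E relative to Kat6b-/- (SE 0.0645, FDR=0.0241), while Kat6b E/E gave 0.03 (95% interval -0.10 to 0.16) and Kat6b-/- 0.40 (FDR=0.00441) relative to WT. Without the libraries with Xist the log2 fold change was -0.29 and the call was lost (FDR=0.216), as with Xist as a covariate (FDR=0.121). In the list of 16 genes that respond to temperature and handling, Rbm3 was the only member called, 3 members had an unadjusted p under 0.05 on the higher side and 1 on the lower, and the median was 0.15.

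U2surp encodes a protein associated with the U2 small nuclear ribonucleoprotein of the spliceosome and lies at chr9:95338200-95394093. It was at 180.2, 183, 192 and 184 CPM in Kat6b E/E and at 196, 209, 224 and 229.9 CPM in Kat6b-/-. All 4 point mutants lay below all 4 nulls, and this was the only called gene whose libraries did not overlap. The log2 fold change was -0.22 (SE 0.0402, FDR=0.0303), and without the libraries with Xist it was -0.21 (FDR=0.123). The WT libraries were at 188 to 205 CPM. Of 20 U2 and associated splicing factors tested, 1 had an unadjusted p under 0.05 on the higher side (Puf60, 0.10) and 2 on the lower (U2surp and Smndc1, -0.15), with a median of -0.01.

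Peli3, a ubiquitin ligase of the Pellino family that acts in Toll and interleukin-1 receptor signalling, lies at chr19:4979715-4993416 and had the largest difference of the 5. Its levels were 6.78, 7.53, 1.60 and 9.73 CPM in Kat6b E/E and 14.1, 11.3, 9.51 and 12.3 CPM in Kat6b-/-. Replicate 4 of the point mutant lay just above the lowest null library. Peli3 fell by 0.87 on the log2 scale, a level 1.82 times higher in Kat6b-/- (SE 0.159, FDR=0.0303). Without Kat6b E/E replicate 3, which at 1.60 CPM lay well below the other point mutants, the log2 fold change was -0.52 (FDR=0.206), and over all alternatives it lay between -1.15 and -0.52. Relative to WT it was -0.26 (95% interval -0.60 to 0.09) in Kat6b E/E and 0.61 (FDR=0.0629) in Kat6b-/-. Without the libraries with Xist the value was -0.93 (FDR=0.112), and with Xist as a covariate it was -0.92 (FDR=0.0241). Among 16 genes of the Pellino and Toll/interleukin-1 receptor pathway, 2 had an unadjusted p under 0.05 on the lower side (Peli3 and the kinase gene Irak2, -0.32) and 0 on the higher side, and the median was -0.03.

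**Figure D3:**
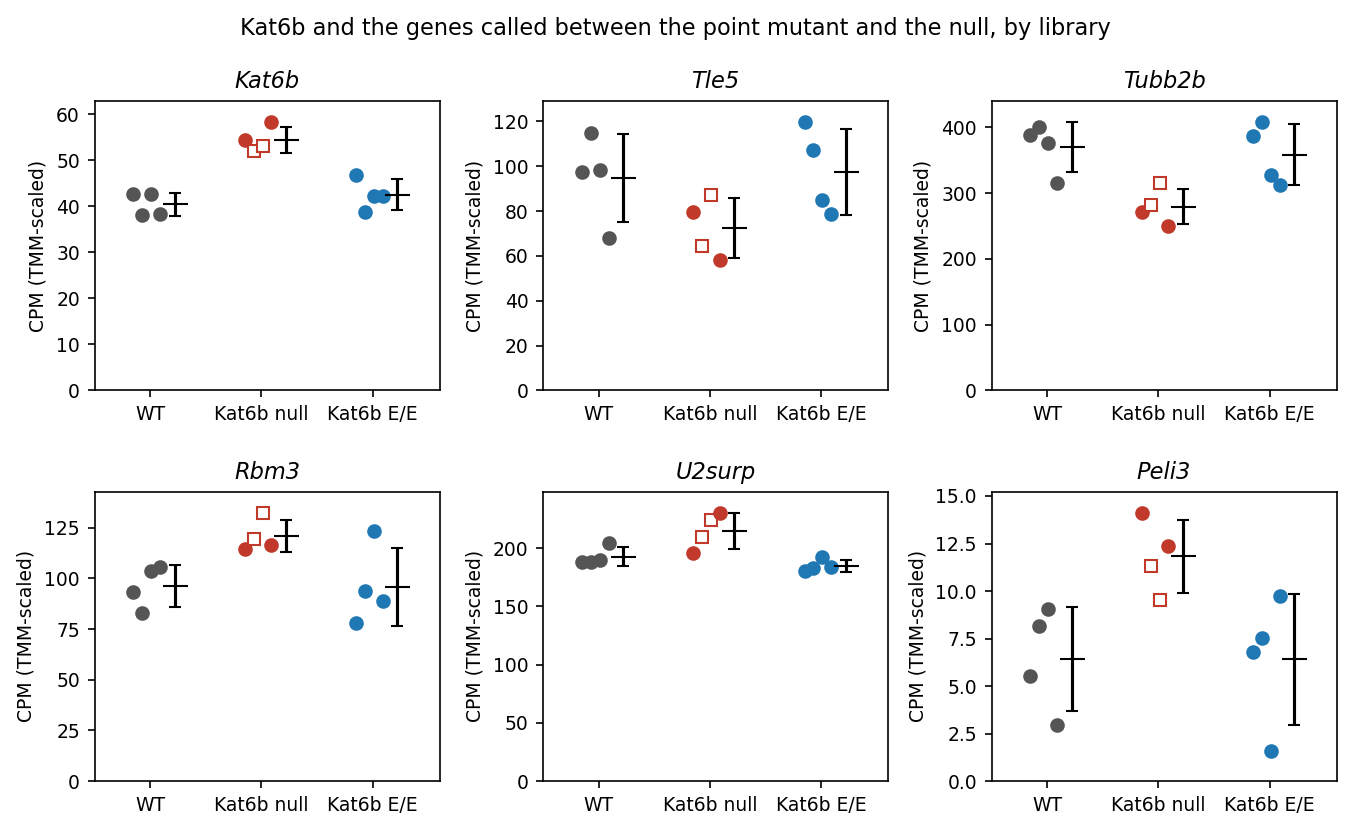
Levels of Kat6b and of the 5 called genes in the 4 WT, 4 Kat6b-/- (null) and 4 Kat6b E/E libraries, in TMM-scaled CPM from 0, with the mean and SD (n = 4) beside each group. Open squares are the 2 Kat6b-/- libraries with Xist. Kat6b and U2surp are the genes whose Kat6b E/E and Kat6b-/- libraries do not overlap.

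Relative to WT, 0 genes were called in Kat6b E/E (0%), by limma, edgeR or DESeq2, with 626 (4.41%) at an unadjusted p under 0.05. In Kat6b-/- 72 were called (0.508%), with 1713 (12.1%) at an unadjusted p under 0.05. The count of 72 was 31, 12 and 11 without WT replicates 1, 2 and 4, and 16 and 20 without Kat6b-/- replicates 3 and 4. Both comparisons share the 4 WT libraries, and a call in one and not in the other is no test of the difference between the mutants, which is the direct comparison above.

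The genes next in rank did not pass the threshold and are given as values. On the higher side in Kat6b E/E, the smallest p was that of Igdcc3, a transmembrane protein of the immunoglobulin superfamily, at 1021, 979, 838 and 877 CPM against 823, 772, 873 and 713 CPM in Kat6b-/- (log2 fold change 0.18, SE 0.034, FDR=0.0507). All libraries of the point mutant lay above those of the null except replicate 3, which lay below replicate 3 of the null. Notch3, a receptor of the Notch pathway, was at 255, 246, 237 and 233 CPM against 206, 215, 227 and 219 CPM (0.18, FDR=0.0987), without overlap. The ligand gene Efnb1, which is X-linked, and the receptor gene Ephb2, partners in ephrin signalling between neighbouring cells, also did not overlap between the groups: Efnb1 had 111 to 132 CPM against 96.2 to 105 CPM (0.21, FDR=0.149) and Ephb2 155 to 167 against 118 to 148 CPM (0.19, FDR=0.228). Stum (0.35), Ssr2 (0.19), a subunit of the translocon-associated complex, and Ptpa (0.13), an activator of protein phosphatase 2A, completed the list with Tubb3, Tubb2a and Ube2s (0.23). In the 22 genes of the Notch pathway as a whole, 2 had an unadjusted p under 0.05 on the higher side (Notch3 and the glycosyltransferase gene Lfng, 0.19) and 1 on the lower (the ligand gene Jag1, -0.18), and the median was 0.01.

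On the lower side the uncalled genes of smallest p included both group 9 Hox genes described below. Adcy4, an adenylyl cyclase, was at 2.64, 4.28, 5.09 and 3.70 CPM in Kat6b E/E and at 7.17, 9.91, 5.92 and 8.73 CPM in Kat6b-/- (log2 fold change -0.93, SE 0.199, FDR=0.0987). The groups did not overlap, and the WT libraries, at 4.97 to 6.09 CPM, lay between them with some overlap. Lef1, a transcription factor of the Wnt pathway, had 62.7 to 86.7 CPM against 82.5 to 98.98 CPM (-0.25, FDR=0.149), and Tcirg1, a subunit of the vacuolar proton pump, 8.28 to 16.3 against 15.2 to 19.8 CPM (-0.57, FDR=0.0987). Ssb, the La RNA-binding protein, was at -0.17, Fam133b at -0.25 and G2e3 at -0.21 on the log2 scale. In Lef1, 16.3% of exon bases overlap the antisense gene Lef1os1, and in Ssb 18.8% overlap other genes; the library kit does not keep strand, so the partners cannot be told apart.

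Kdm6a, which encodes a demethylase of histone H3 lysine 27, escapes X inactivation and is X-linked, was at 56.0, 51.2, 58.4 and 55.7 CPM in Kat6b E/E and at 43.6, 87.2, 93.6 and 64.4 CPM in Kat6b-/-. The highest null values, 87.2 and 93.6, were those of replicates 2 and 3, which have Xist. The log2 fold change of -0.52 (FDR=0.137) became 0.01 (FDR=0.995) without them. Over all 504 X-linked genes tested, 12 had an unadjusted p under 0.05 on the higher side (2.38%, against 4% of all genes). On the lower side there were 24 (4.76%, against 4.84%), so X-linked genes were not in excess there. Of the X-linked genes 1 was called (Rbm3), and the median was -0.01.

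Hox genes, the clustered homeobox genes that give cells their position along the body axis, had lower values in the point mutant across most of the family, without a member being called. The summed level was 691 to 896 CPM in Kat6b E/E and 900.3 to 1119.6 CPM in Kat6b-/-, just without overlap. Of 38 tested, 37 had a log2 fold change below 0 and the median was -0.30. At an unadjusted p under 0.05, 13 were lower (34.2%, against 4.84% of all genes) and 0 higher, and in 6 the libraries did not overlap (1.61% of all genes). The remaining gene, Hoxb13, had at most 1 count in any library and was not tested. The differences were larger for posterior genes: the median was -0.11 over the 12 genes of paralog groups 1 to 4, -0.21 over the 11 of groups 5 to 8 and -0.70 over the 15 of groups 9 to 13, which pattern the trunk and tail.

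Hoxc9 was at 13.7, 12.1, 5.89 and 13.7 CPM in Kat6b E/E and at 20.5, 17.4, 17.2 and 17.03 CPM in Kat6b-/-. All point mutants lay below all nulls, and the log2 fold change was -0.65 (SE 0.127, FDR=0.0507). Hoxa9 did not overlap either, with 7.21, 8.48, 2.47 and 5.55 CPM against 11.8, 11.02, 9.32 and 10.4 CPM (-0.83, SE 0.181, FDR=0.0987). Hoxd10 and Hoxd1 completed the 4 Hox genes of smallest p, and Hoxd1 had -0.49 (unadjusted p=0.00973) with overlapping libraries. Without overlap were Hoxd10 (-0.74) and, chosen after their values were seen, Hoxc6 (-0.36), Hoxd4 (-0.45) and Hoxa3 (-0.22). Hoxb5, at 0.06, was the one gene above 0 in the reported model, and it lay below 0 in 4 of 26 alternatives. With Xist as a covariate Hoxc9 (-0.68, FDR=0.0378) and Hoxa9 (-0.98, FDR=0.0432) passed the threshold.

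Much of the posterior part lay in Kat6b E/E replicate 3. Its summed level over the 15 genes of groups 9 to 13 was 123 CPM, against 272, 283 and 286 CPM in the other Kat6b E/E libraries and 269 to 368 CPM in Kat6b-/-, and WT replicate 4 was also low at 139 CPM. The brachyury gene T, a marker of the tailbud and early mesoderm, was at 1.82 CPM in the same Kat6b E/E library and at 13.99 to 17.7 CPM in the others, against 14.3 to 30.6 CPM in Kat6b-/-. Without Kat6b E/E replicate 3, the median of groups 9 to 13 was -0.01. In that fit 6 of 38 Hox genes were lower at an unadjusted p under 0.05, beside 858 of all 14183 genes. The medians of groups 1 to 4 and 5 to 8 were then -0.15 and -0.19. Without the libraries with Xist the Hox median was -0.37, with 11 lower (3.63% of all genes were lower) and 0 higher. Relative to WT, Kat6b E/E had a Hox median of -0.12, with 4 of 38 lower and 0 higher at an unadjusted p under 0.05. Of all genes, 4.41% passed in that comparison, counting either direction. Kat6b-/- relative to WT had a Hox median of 0.18, with 8 of 38 higher, 2 lower and Hoxc9 called (0.53, FDR=0.0461). In that comparison 793 of all 14183 genes were higher and 920 lower.

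**Figure D4:**
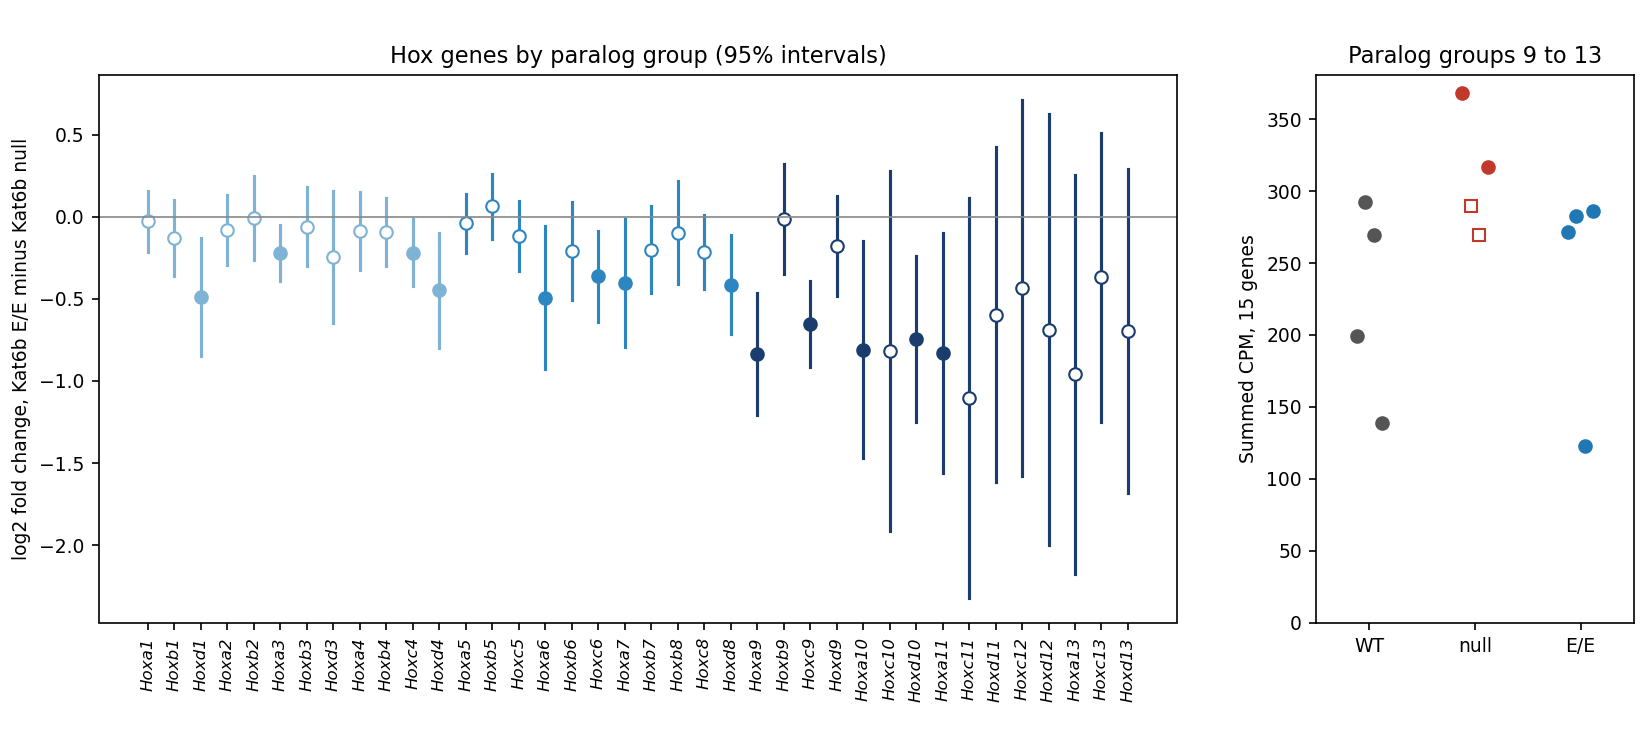
Left, log2 fold change of the 38 Hox genes tested, Kat6b E/E minus Kat6b-/-, with 95% intervals, ordered by paralog group and shaded from groups 1 to 4 (light) to groups 9 to 13 (dark), with filled points where the unadjusted p is under 0.05. Right, summed CPM of the 15 genes of groups 9 to 13 in each library, where Kat6b E/E replicate 3 lies at 123 and open squares are the Kat6b-/- libraries with Xist.

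Cytoplasmic ribosomal protein genes had slightly higher values in the point mutant than in the null, without a call. Of 80 tested, 66 had positive values, 17 had an unadjusted p under 0.05 on the higher side (21.2%, against 4% of all genes) and 0 on the lower side, and the median log2 fold change was 0.09, with 0 called. Rpl35 was at 49.2, 47.0, 36.3 and 54.9 CPM in Kat6b E/E and 41.2, 39.0, 40.3 and 33.2 CPM in Kat6b-/- (0.36, FDR=0.228). Replicate 3 of the point mutant lay within the null range and the other 3 above it. Without surrogate variables 5 of the 80 were on the higher side at this threshold, beside 304 of all 14183 genes, and the median was 0.05. These genes have many processed copies, and some overlap neighbouring genes. In 62 of the 79 with a transcript sequence, over 10% of 75-base windows occur in other genes. Not all of these are copies: Rpl18 shares 85.9% of its windows with other genes, mostly its overlapping neighbour Sphk2.

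For genes of the nervous system and the heart, the counts depended on the libraries that have Xist. With all libraries, 2 of 19 neural progenitor genes were higher at an unadjusted p under 0.05 (Vim and Rfx4) and 0 lower, with a median of 0.10, and 2 of 30 early neuron genes were higher (Tubb3 and Ina) and 1 lower (Isl1), with a median of 0.09. Rfx4, a transcription factor of the neural tube, was at 41.6, 48.4, 48.8 and 40.8 CPM in Kat6b E/E and at 25.0, 40.5, 37.2 and 35.4 CPM in Kat6b-/-, without overlap (0.26, FDR=0.338). Without the libraries with Xist, 6 of 19 and 7 of 30 were higher, against 5.13% of all genes, and 0 and 1 were lower, and the medians were 0.23 and 0.25. Of 29 heart transcription factor and sarcomere genes, 2 were higher and 1 lower with all libraries (median -0.02), and 0 were higher and 13 lower without the libraries with Xist (median -0.24; 3.63% of all genes were lower).

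Tbx20 and Actn2, a transcription factor and a sarcomere gene chosen after their values were seen, were the heart genes called with Xist as a covariate. Tbx20 was at 31.0, 31.4, 37.2 and 34.6 CPM in Kat6b E/E and at 43.0, 33.5, 34.4 and 49.4 CPM in Kat6b-/-. The null libraries without Xist, replicates 1 and 4, had the higher values, and those with Xist lay among the point mutants. The log2 fold change was -0.15 (FDR=0.873) with all libraries and -0.61 (FDR=0.033) with the covariate. Without Kat6b-/- replicate 4 alone, it was 0.01. Actn2 had -0.10 (FDR=0.846) and -0.41 (FDR=0.049). Each of the 4 Kat6b-/- embryos came from its own litter, so Xist status and litter cannot be told apart among them, and without the libraries with Xist the null is represented by 2 embryos.

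The 10 genes called without the libraries with Xist were Tubb2b, Tle5, Igdcc3, Efnb1 and Kat6b, named above, and 5 others chosen after their values were seen. Celsr2, a cadherin of planar cell polarity, had a log2 fold change of 0.49 (FDR=0.0163), Wnt5a, a secreted Wnt ligand, of -0.39 (FDR=0.0217) and Prickle1, a cytoplasmic planar polarity protein, of -0.44 (FDR=0.048). Nr2f6, an orphan nuclear receptor, had 0.33 (FDR=0.0217) and Mn1, a transcriptional regulator of craniofacial bone, 0.36 (FDR=0.0426). With all libraries the same 5 genes had values of 0.23, -0.29, -0.20, 0.16 and 0.21 in this order, and none of them was called.

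Among the other lists, few or no members stood out. Of 16 embryonic red cell markers 0 had an unadjusted p under 0.05, but all 16 were below 0 with a median of -0.41, and the summed level was 3273 to 10397 CPM in Kat6b E/E and 3963 to 14390 in Kat6b-/-. That median was -0.01 without the libraries with Xist and -0.43 with Xist as a covariate. Of 10 endothelial, 12 cell cycle inhibitor and p53 pathway and 20 hypoxia response genes, 0 had an unadjusted p under 0.05 in either direction, with medians of 0.03, 0.02 and 0.10. These counts moved with the libraries and the model used. With Xist as a covariate 3 endothelial genes (median -0.13) and 1 cell cycle or p53 gene were lower, beside 753 of all 14183 genes. Without the libraries with Xist 1 endothelial gene was lower, beside 3.63% of all genes. Without Kat6b E/E replicate 3, 3 hypoxia genes were higher, beside 786 of all 14183 genes. Of 20 paraxial mesoderm and skeletal precursor genes T was the single one, at -1.01 (unadjusted p=0.0347), and of 9 Dlx and Msx homeobox genes Msx3 was the single one, at 0.32 (unadjusted p=0.0425). Among visceral endoderm and yolk sac markers, 1 of 8 (Amn, -1.02) was lower at this threshold, at under 1 CPM in all 8 libraries.

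**Figure D5:**
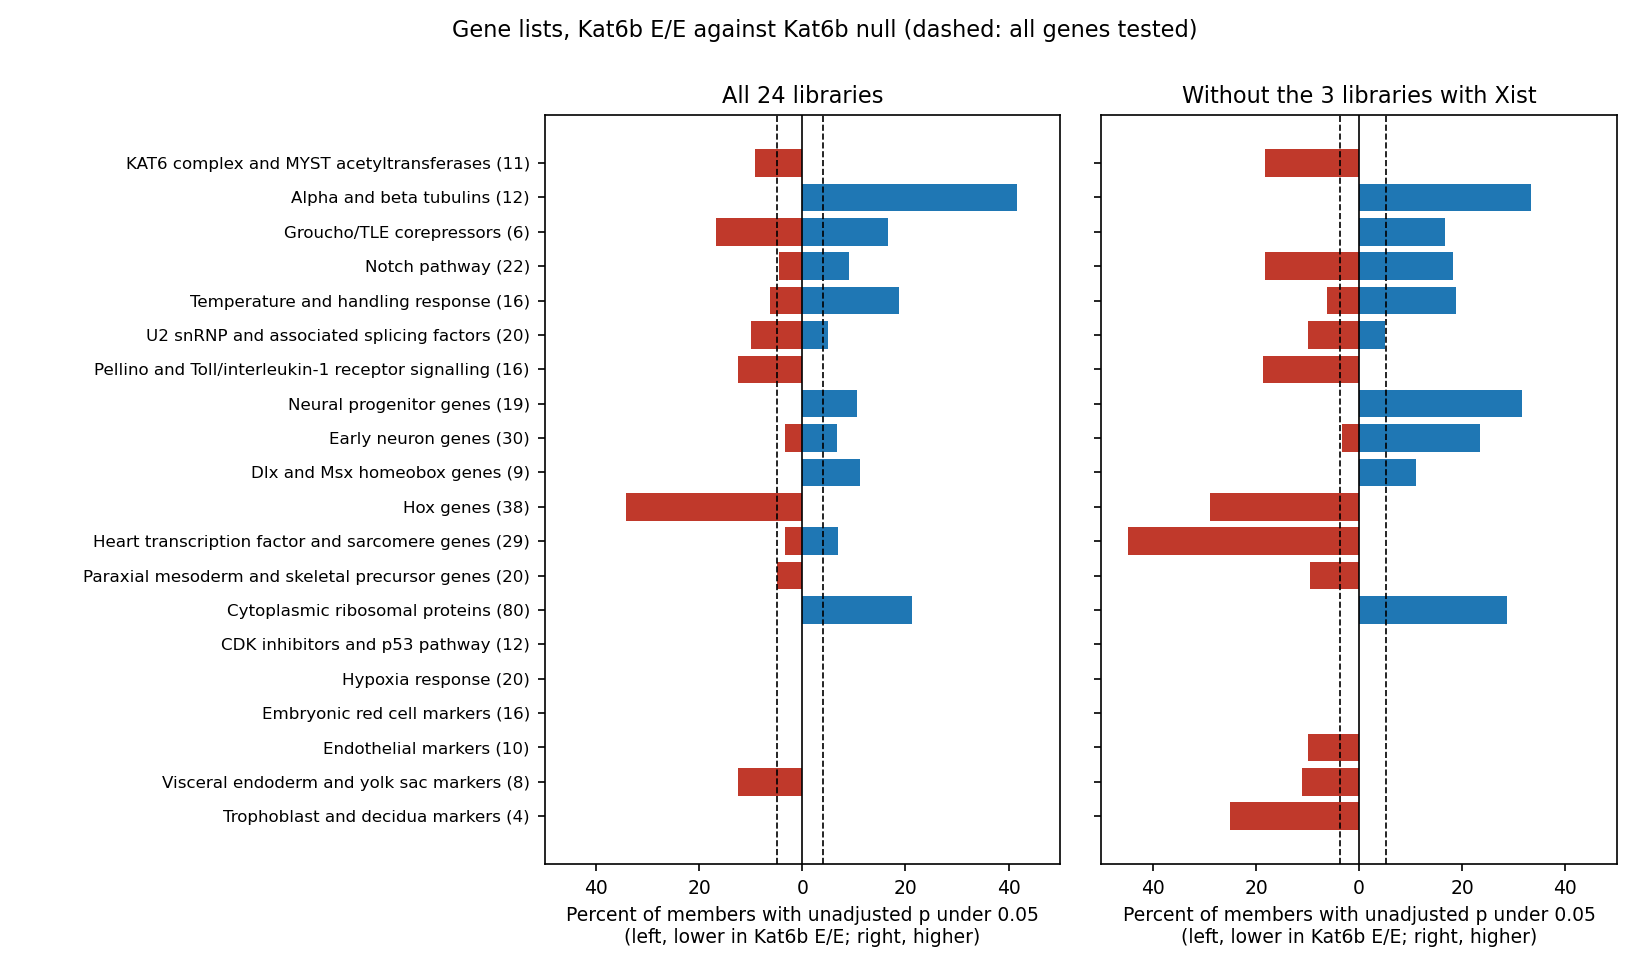
Percent of the tested members of each gene list with an unadjusted p under 0.05, higher in Kat6b E/E to the right (blue) and lower to the left (red), with all 24 libraries (left panel) and without the 3 libraries with Xist (right panel). Numbers in parentheses are members tested with all libraries, and dashed lines mark the share of all genes tested. Hox genes reach 34.2% on the lower side in the left panel, and heart genes have 1 of 29 members on the lower side in the left panel and 13 of 29 in the right.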

How the data were processed

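The deposited files hold counts per gene, which the authors obtained with featureCounts after alignment to mm39 (GRCm39), per the labels and methods; gene length is the other column. The libraries were made with a TruSeq v2 kit, which does not keep strand. Of 26411 genes, 26359 matched a GRCm38 gene table used for gene types and for X and Y linkage. Rows without a symbol (2 rows, at most 0.00123% of a library) were not tested. As the study's methods describe, genes that code for protein and are not Y-linked were filtered with filterByExpr, scaled by TMM and fitted over 24 libraries with voomLmFit (edgeR 4.0.16), 4 surrogate variables from wsva, litter as a random block (correlation 0.107) and robust empirical Bayes (limma 3.58.1, R 4.3.3). P-values were adjusted over all 14183 tested genes by the Benjamini-Hochberg method to give the FDR, which is from this model unless another is named. CPM are TMM-scaled. The data are separate embryos. The p-values measure the spread left between embryos after the surrogate variables and litter block were fitted, estimated over all 24 libraries.

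Named are Kat6a, Kat6b, the called genes, the 10 uncalled genes of smallest p in each direction, and up to 4 members of smallest p per list; of the last, those with an unadjusted p under 0.05 were followed over the alternatives and not all are printed. Brpf1, Brd1, Hoxa3, Hoxb5, Hoxc6, Hoxd4, Tbx20, Actn2, Celsr2, Wnt5a, Prickle1, Nr2f6 and Mn1 fall outside this rule and were chosen after their values were seen. Members, lists and rule were chosen with earlier results of these data known. Alternatives were 0, 2 or 6 surrogate variables, no litter block, edgeR quasi-likelihood tests, DESeq2 1.42.0, DESeq2 size factors, no filter, all gene types, a replicate block, only the 8 libraries, and omission of each of the 8 libraries. Chosen later, with the data in view, were omission of the libraries with Xist, Xist as a covariate, autosomal genes only, and omission of each WT library. The procedure was tested on simulated data. Reads were not used here.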

Additional observations from a re-analysis of the deposited data

Results flagged for a closer look

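In 9 of 84 groups of 4 libraries (10.7%), 1 library lay so far from the other 3 that the gap over the whole range passed Dixon's critical value for 4 samples. Chance flags about 1 in 20 groups. In Kat6b E/E the library concerned was replicate 3 each time: its summed level of Hox paralog groups 9 to 13 was 123 CPM against 272 to 286 in the others, Ube2s was at 75.7 CPM against 97.2 to 98.7, and Ptpa at 222 CPM against 248 to 252. In Kat6b-/-, Hoxc9 was at 20.5 CPM in replicate 1 against 17.03 to 17.4, Stum at 15.7 CPM in replicate 2 (which has Xist) against 12.4 to 12.9, and Efnb1 at 96.2 CPM in replicate 4 against 105 in the others. In WT it was replicate 4, with 205 CPM of U2surp against 188 to 190.1, 776 CPM of Igdcc3 against 951 to 986, and a total of 19078839 counts against 11823454 to 12048947.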

How the results depend on the processing

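The number of genes called between Kat6b E/E and Kat6b-/-, 5 in the reported model, was 0 with 0 or 2 surrogate variables (614 genes at an unadjusted p under 0.05 with 0) and 19 with 6. It was 10 with edgeR and 4 surrogate variables, 0 with edgeR and 0 of them, and 43 with DESeq2. With all gene types, a setting that also lets in Xist and the Y-linked genes, it was 30. It was 0 with only the 8 libraries, 10 without the 3 libraries with Xist and 64 with Xist as a covariate. Leaving out 1 library in turn gave 0 to 13. For Kat6b-/- against WT, 72 in the reported model, the same alternatives that moved the count gave 0 (0 surrogate variables, by limma or edgeR), 29 (2), 169 (6), 154 (DESeq2), 116 (all gene types), 44 (without Xist libraries) and 141 (Xist covariate), and leaving out 1 library gave 11 to 99. For Kat6b E/E against WT the count was 0 in every alternative run. The distance excess was 0.101 after removal of surrogate variables, and -0.0274 to 0.0736 when 1 library was left out. With the replicate number as a block, 13 genes were called between the mutants and 200 between Kat6b-/- and WT. The distance excess was then 0.141, with a mean distance of 0.94 within each genotype. Removal of the block with genotype kept takes out spread within genotypes by construction, so this excess is no test of a genotype difference. Same-numbered Kat6b E/E and Kat6b-/- libraries deviated with correlations of 0.00668, -0.0855, 0.108 and 0.244, and 2 of 4 Kat6b E/E libraries correlated best with their own number. Whether same-numbered libraries share more than a number was not tested. Over 64 genes (those of the naming rule and those chosen later), 1639 of 1663 values kept their direction, and 24 did not. These were values of Kat6a (-0.00289 with the replicate block, and -0.0336 to 0.101 when 1 library was left out), Kdm6a (0.00507 without Xist libraries, 0.0171 with the covariate), Tbx5 (-0.0331 and -0.104), Brpf1 (0.00754 with 6 surrogate variables, and -0.0728 to 0.00294 when 1 library was left out), Brd1 (0.0204 with 6 surrogate variables, 0.00566 with all gene types, 0.0182 without Xist libraries, 0.0129 with the covariate, and -0.0381 to 0.0154 when 1 library was left out), Hoxb5 (-0.000589 with edgeR and 0 surrogate variables, -0.00207 with only the 8 libraries, -0.0167 with the covariate, and -0.0174 to 0.137 when 1 library was left out) and Tbx20 (-0.24 to 0.0106 when 1 library was left out). The cause of these changes was not tested.

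Limits: there are 4 embryos per genotype, the compared genotypes share 0 litters, and Kat6b E/E replicates 1 and 2 are littermates. Of the Kat6b-/- embryos 2 have Xist, and the calls depend on estimated surrogate variables. Counts are per gene, so exons and alleles were not separated.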

Other observations

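The genes called between the single mutants can be set beside the embryos homozygous for both point mutations (Kat6a E/E with Kat6b E/E), as values with no test. There Tle5 was at 77.6 ± 5.19 CPM (SD, n = 4), against 97.6 ± 19.2 in Kat6b E/E and 72.4 ± 13.3 in Kat6b-/-. Tubb2b was at 306 ± 23.4 CPM, against 359 ± 45.7 and 279.5 ± 27.0. Rbm3 was at 118 ± 8.89 CPM, against 95.8 ± 19.3 and 121 ± 7.93, and U2surp at 204 ± 16.2 CPM, against 185 ± 5.17 and 215 ± 15.3. Peli3 was at 9.47 ± 1.19 CPM, against 6.41 ± 3.44 and 11.8 ± 1.92. The mean of the double point mutant lay between those of the single mutants for all 5 genes, and it lay within 1 SD of the Kat6b-/- mean for 4 of them, Peli3 being the exception. The 5 genes were selected for a difference between the single mutants, and a position between them was not particular to the double mutant. The WT mean also lay between for every gene but Tubb2b (370 CPM). The Kat6a null mean did so for every gene but U2surp (178 CPM).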
